A study of Mus musculus with 6 samples.

Results

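NRF2, encoded by Nfe2l2, is the transcription factor that switches on the glutathione, thioredoxin and NADPH-producing genes of a cell, and Keap1 is the adaptor that hands it to a ubiquitin ligase for degradation. Described here are 37 genes chosen by name from the gene FPKM table, out of 54532 genes in that table: the regulator pair, the glutathione and thioredoxin systems, NADPH supply, ferritin, catalase and the superoxide dismutases. All 37 were found under their symbols, and all 37 had a mean of at least 1 FPKM (a read density scaled for gene length and library size), the level required for testing. RNA-seq was done on mouse cells labelled primary lung fibroblasts, with 3 libraries of calumenin knockdown cells (KD) and 3 of NC cells. The labels do not spell out NC, and the descriptions call the same KD and NC libraries KO and WT. The labels give no strain, age, knockdown reagent or culture conditions. Whether the libraries of a group came from different cultures or animals is not given either, so the p-values rest on a spread between libraries that may be purely technical. The study set out to learn how loss of calumenin, a calcium-binding protein of the secretory pathway, affects senescence and fibrosis signalling.

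Oxidants that cells make in the mitochondria and elsewhere pass through a relay of enzymes. Superoxide dismutases turn superoxide into hydrogen peroxide, and catalase, glutathione peroxidases and peroxiredoxins remove the peroxide. Glutathione reductase and thioredoxin reductase then restore the used glutathione and thioredoxin with NADPH. Ferritin holds iron in a form that does not react with peroxide. In fibroblasts of the lung these systems are known for handling oxidants that accompany injury and scarring.

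Calu, the targeted gene, had 14.6, 12.6 and 13.1 FPKM in KD1, KD2 and KD3, against 220, 227 and 225 FPKM in NC1, NC2 and NC3 (limma adjusted p = 1.28e-06). The 6 libraries held 15907164 to 18312888 reads, recovered from the deposited values. KD1 stood apart: over recovered reads, chi-square divided by its degrees of freedom was 17.5 and 29.1 for KD1 against KD2 and KD3, 4.47 for KD2 against KD3 and 2.31 to 3.19 for NC pairs. The mitochondrial share of reads was 2.56% in KD1 and 1.60% to 1.97% in the other libraries. Across 12282 genes, which are not independent replicates, the deviation of a library from the mean of the 6 had a Spearman correlation with GC content of -0.41 in KD1, 0.34 in KD2 and 0.49 in KD3, against -0.24 to -0.04 in NC libraries. KD1 was the farthest of the KD libraries from their median for 25 of the 37 genes, or 67.6%, and for 61.4% of all tested genes. Of 12 fibroblast markers 6 had a mean of at least 1 FPKM, with a summed level over the list of 1320 to 1360 FPKM in KD and 1200 to 1250 FPKM in NC libraries. Col1a1 averaged 190% and Pdgfra 158% of the NC level (limma adjusted p = 0.000193 and 0.00422), Col3a1 44.3% and Pdgfrb 82.0% (0.000111 and 0.0292), and Vim and Col1a2 did not pass. Of the rest, Dcn had 0 reads in KD and 3 in NC libraries, Lum had 0 in all 6, and Thy1 had 16 in KD and 18 in NC libraries. Of the 8 epithelial and 5 endothelial markers none reached 1 FPKM, and of 7 immune markers only Cd68 and Lyz2 did. The summed immune level was 3.38 to 5.01 FPKM in KD and 4.91 to 5.77 FPKM in NC libraries, Ptprc and Adgre1 being at or near 0 in all 6. Of 4 mesothelial markers only Msln reached 1 FPKM, and the summed level was 10.4 to 14.3 FPKM in KD and 13.7 to 14.8 FPKM in NC libraries. Of 5 smooth muscle markers only Des did, with summed levels of 5.37 to 6.37 FPKM in KD and 6.31 to 8.0 FPKM in NC libraries. Their part in the results was not tested. In bulk RNA, fewer cells that express a gene and less RNA per cell cannot be told apart.

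The genes lower in KD cells included 4 of 5 for glutathione supply and recycling and 4 of 9 of the thioredoxin system, and the 12 in all were at 63.9% to 85.5% of the NC level, while Sod3, the secreted superoxide dismutase, was 2.39-fold higher. Limma on log2(FPKM + 1), with Benjamini-Hochberg adjustment over 12299 genes, called 12 of the 37 genes lower (32.4%) and 2 higher (5.41%), and 23 did not pass an adjusted p of 0.05. Of all tested genes 13.6% were lower and 10.9% higher by the same rule. The median log2 difference was -0.20 over the 37 genes and 0.01 over all tested genes, and 29 of the 37 differences (78.4%) were negative against 48.6% of all. Every KD library lay below every NC library for 22 genes (59.5%, against 22.9% of all tested genes), and above for 4 (10.8%, against 21.3%). Without KD1 the counts were 17 lower and 4 higher, where 21.5% and 20.9% of all tested genes were called. The fold changes of all but Sod3 and Prdx5 were small, with KD means between 63.9% and 116% of NC means.

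**Figure D1:**
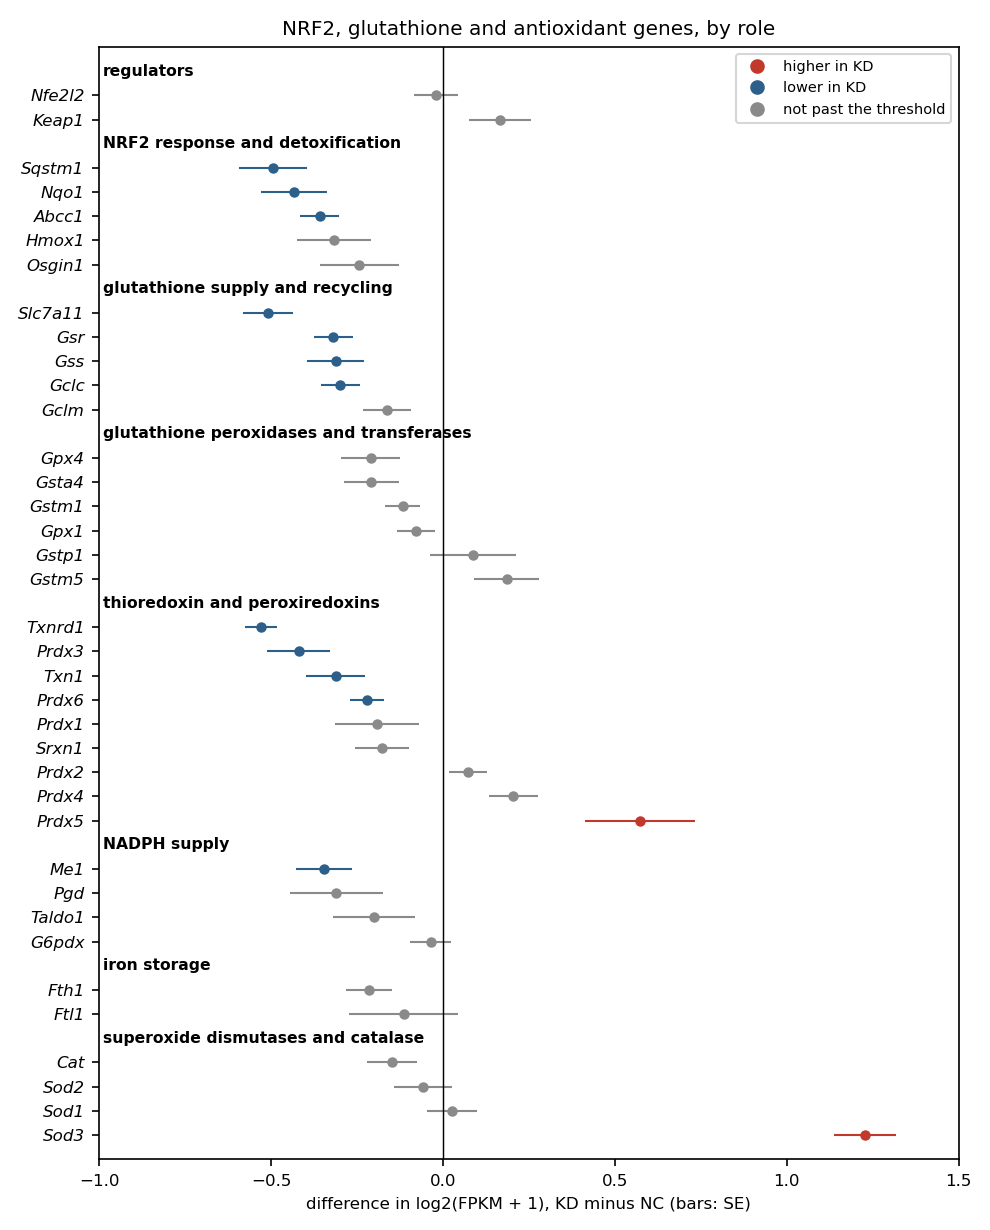
Difference in log2(FPKM + 1), KD minus NC, for the 37 genes grouped by role; points are fitted differences, bars their SE (3 libraries a group). The 12 genes lower in KD lie between -0.53 (Txnrd1) and -0.22 (Prdx6), and Sod3 stands alone at 1.23.

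Promoters are shown for 4 of the genes that passed the threshold, because NRF2 acts through a short sequence, the antioxidant response element. RefSeq windows of 300 bases (GRCm38.p6), 250 before and 50 after an annotated start, were matched by symbol for 30 of the 37 genes, and Hmox1, Abcc1, Gclc, Gsr, Gsta4, Prdx6 and Sod3 had none. The core element TGACNNNGC was searched on both strands (GCNNNGTCA on the other), and no other motif was searched. It was present in a window of 10 of the 30 genes (33.3%) and of 13.99% of all 27025 genes in the table. By call it was in 2 of the 8 lower genes with a window, in 8 of the 21 that did not pass and not in Prdx5. Txnrd1 and Me1, both lower in KD, held a match, given in capitals below. Txnrd1 had 3 windows and Me1 had 2, and the window printed was chosen by its number of matches. Slc7a11, also lower, and Prdx5, higher, had 1 window each and held no match in it. The 4 genes were picked as 2 with and 2 without a match, so they do not show how common a match was. A match describes the letters and does not show that the site is bound.
Txnrd1, chr10:82858956-82859255, plus strand: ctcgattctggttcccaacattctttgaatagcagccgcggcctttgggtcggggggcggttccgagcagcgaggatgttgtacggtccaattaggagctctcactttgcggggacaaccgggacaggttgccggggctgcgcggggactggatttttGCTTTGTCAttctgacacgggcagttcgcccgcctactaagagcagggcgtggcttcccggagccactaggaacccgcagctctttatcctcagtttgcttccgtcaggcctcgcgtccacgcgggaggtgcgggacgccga
Me1, chr9:86695865-86696164, minus strand: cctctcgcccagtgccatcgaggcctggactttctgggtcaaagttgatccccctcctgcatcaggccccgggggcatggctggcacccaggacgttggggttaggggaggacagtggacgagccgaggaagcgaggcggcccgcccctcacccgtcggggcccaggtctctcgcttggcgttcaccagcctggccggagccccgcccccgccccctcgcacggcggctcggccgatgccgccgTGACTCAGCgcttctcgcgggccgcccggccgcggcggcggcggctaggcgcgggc
Slc7a11, chr3:50443564-50443863, minus strand: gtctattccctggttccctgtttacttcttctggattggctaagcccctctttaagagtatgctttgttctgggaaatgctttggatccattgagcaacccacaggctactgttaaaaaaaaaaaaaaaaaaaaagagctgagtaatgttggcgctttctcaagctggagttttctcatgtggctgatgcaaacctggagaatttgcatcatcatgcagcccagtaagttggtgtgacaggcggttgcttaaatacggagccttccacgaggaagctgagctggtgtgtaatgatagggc
Prdx5, chr19:6910057-6910356, minus strand: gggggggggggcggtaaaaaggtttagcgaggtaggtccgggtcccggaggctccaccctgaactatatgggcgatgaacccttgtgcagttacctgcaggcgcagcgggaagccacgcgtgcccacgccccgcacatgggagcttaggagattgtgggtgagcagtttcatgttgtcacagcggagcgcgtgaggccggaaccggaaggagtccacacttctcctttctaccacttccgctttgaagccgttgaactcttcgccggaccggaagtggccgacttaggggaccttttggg

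The pair of regulators did not pass the threshold. Nfe2l2 had 21.2, 21.3 and 19.8 FPKM in KD1, KD2 and KD3, against 22.3, 21.2 and 19.8 FPKM in NC1, NC2 and NC3, and the groups overlapped. Its log2 difference was -0.02 (SE 0.06, limma adjusted p = 0.846), and the sign turned positive in 6 alternative settings. Keap1 had 15.997, 19.1 and 20.4 FPKM in KD libraries, against 16.1, 16.3 and 16.4 FPKM in NC libraries. KD2 and KD3 lay above all NC values and KD1 just below them, a log2 difference of 0.17 (adjusted p = 0.222); without KD1 it was 0.26 (limma adjusted p = 0.00621).

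Of 5 genes of the classical NRF2 response 3 fell and 0 rose, where 13.6% of all tested genes were lower. Sqstm1 encodes the autophagy receptor p62, which also binds KEAP1, and had 81.8, 101 and 106 FPKM in KD1, KD2 and KD3, against 133, 137 and 135 FPKM in NC1, NC2 and NC3. The groups did not overlap and KD1 was the lowest library (log2 difference -0.49, SE 0.10, adjusted p = 0.0141). Nqo1, a quinone reductase, had 7.55, 8.75 and 7.84 FPKM in KD libraries, against 12.2, 9.76 and 11.7 FPKM in NC libraries. Its KD values were all below the lowest NC value, that of NC2 (log2 difference -0.43, SE 0.10, adjusted p = 0.0202). Abcc1, a pump that exports glutathione conjugates, spans 14361558 to 14475737 of chromosome 16, plus strand (ENSMUSG00000023088, mm10). It had 7.61, 7.64 and 7.07 FPKM in KD libraries, against 9.89, 9.81 and 9.76 FPKM in NC libraries, tight in both groups and without overlap (log2 difference -0.36, SE 0.06, adjusted p = 0.00601).

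Hmox1, the inducible haem oxygenase that frees iron from haem, had 9.20, 10.8 and 12.7 FPKM in KD libraries, against 13.3, 14.1 and 13.8 FPKM in NC libraries. The groups did not overlap, yet the log2 difference of -0.32 did not pass (SE 0.11, limma adjusted p = 0.0762). It passed without KD3 (adjusted p = 0.0208), with a GC and length trend removed (0.00659) and with chromosome medians removed (0.0233). In the other 16 of 19 alternatives it did not pass (limma adjusted p up to 0.202). Osgin1, a growth inhibitor induced by oxidative stress, had 3.88 to 5.53 FPKM in KD and 5.43 to 6.21 FPKM in NC libraries, with a narrow overlap (adjusted p = 0.175), and it too passed with the GC and length trend removed (0.025).

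Of the 5 genes for glutathione supply and recycling 4 fell and 0 rose, where 13.6% of all tested genes were lower. For all 5 every KD library lay below every NC library, which held for 22.9% of all tested genes. Slc7a11 encodes the transport subunit of the cystine-glutamate exchanger, which brings in the cystine that limits glutathione synthesis. The gene spans 49892526 to 50443614 of chromosome 3, minus strand (ENSMUSG00000027737), and had 3.18, 2.91 and 2.77 FPKM in KD1, KD2 and KD3, against 4.49, 4.84 and 4.55 FPKM in NC1, NC2 and NC3. KD cells kept 63.9% of the NC level, the lowest share among the 37 genes, and the log2 difference was -0.51 (SE 0.07, adjusted p = 0.00422). Gclc, the catalytic subunit of glutamate-cysteine ligase and the rate-limiting enzyme of glutathione synthesis, had 15.9, 14.6 and 14.6 FPKM in KD libraries, against 18.8, 18.6 and 18.8 FPKM in NC libraries (log2 difference -0.30, SE 0.06, adjusted p = 0.0116). The partner subunit Gclm had 25.2, 23.2 and 21.6 FPKM in KD libraries, against 26.9, 26.5 and 25.2 FPKM in NC libraries. KD1 lay just under the lowest NC value, and the log2 difference of -0.16 did not pass (adjusted p = 0.134) but did without KD1 (-0.22, limma adjusted p = 0.0181). The ratio of Gclc to Gclm FPKM was 0.633, 0.631 and 0.676 in KD libraries, against 0.698, 0.702 and 0.747 in NC libraries. The ratios did not overlap (two-sided exact permutation p = 0.1, the smallest that 3 against 3 allows).

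Gss, which joins glycine to finish glutathione, had 3.76, 4.54 and 4.64 FPKM in KD libraries, against 5.47, 5.64 and 5.61 FPKM in NC libraries (log2 difference -0.31, SE 0.08, adjusted p = 0.0365). The call ended with the GC and length trend removed (limma adjusted p = 0.0539), with no filter (0.0852) and in 4 of the 6 fits that left out 1 library (up to 0.121). Its span overlaps that of Acss2 on the opposite strand, and since no strand setting is given, reads in the shared part cannot be told apart. Gsr, glutathione reductase, had 30.9, 34.4 and 33.2 FPKM in KD libraries, against 41.5, 41.2 and 40.9 FPKM in NC libraries. NC libraries differed little among themselves, KD libraries by more, and there was no overlap (log2 difference -0.32, SE 0.06, adjusted p = 0.00953).

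None of the 6 peroxidases and transferases that use glutathione passed the threshold, where 13.6% of all tested genes were lower and 10.9% higher. With so few genes this is given as a description only. Of their differences 4 were negative and 2 positive, where 48.6% of all were negative. Gpx1, the main cytosolic glutathione peroxidase, had 133, 123 and 133 FPKM in KD libraries, against 136, 139 and 135 FPKM in NC libraries (log2 difference -0.08, adjusted p = 0.335). Gpx4, which reduces lipid peroxides in membranes, had 112, 137 and 136 FPKM in KD libraries, against 149, 151 and 144 FPKM in NC libraries. All KD values were below the NC values, with KD1 the lowest (log2 difference -0.21, SE 0.09, adjusted p = 0.124). Without KD1 the difference was -0.12 and passed (limma adjusted p = 0.0451), and after removal of a GC and length trend it also passed (0.00421). In the other 17 of 19 alternatives Gpx4 did not pass, with a limma adjusted p of 0.89 when chromosome medians were removed. A processed copy, Gpx4-ps2, was counted at 50.2 ± 6.12 FPKM in KD and 55.5 ± 5.05 FPKM in NC (SD, n = 3 each), so reads may be split between them.

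The transferases couple glutathione to reactive molecules. Gstm1 had 163 to 170 FPKM in KD and 178 to 188 FPKM in NC libraries (adjusted p = 0.145), and Gsta4, which acts on products of lipid peroxidation, had 23.6 to 27.0 FPKM in KD and 28.1 to 32.4 FPKM in NC libraries (adjusted p = 0.106). In both the groups were apart but close. Gstm5 leaned the other way, with 20.6, 16.5 and 17.7 FPKM in KD libraries, against 16.02, 16.9 and 14.8 FPKM in NC libraries, overlapping (log2 difference 0.18, adjusted p = 0.196). Gstp1 ranged from 66.6 to 87.9 FPKM in KD and from 65.7 to 82.4 FPKM in NC libraries (adjusted p = 0.645). The Gstm genes are close relatives in a cluster, and Gstp-ps, a copy of Gstp1, had 14.04 FPKM in KD and 13.5 FPKM in NC, so these values carry uncertain assignment of reads.

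Of 9 genes of the thioredoxin system 4 fell and 1 rose, where 13.6% of all tested genes were lower and 10.9% higher. Txnrd1, the cytosolic thioredoxin reductase, spans 82833951 to 82897712 of chromosome 10, plus strand (ENSMUSG00000020250). Of its 3 promoter windows, that shown above holds the GCTTTGTCA match and was chosen by its number of matches. This window lies inside the span and not at its start. Eid3 shares 1305 bases of the Txnrd1 span on the same strand, with a mean of 2.265 FPKM over all libraries. Txnrd1 had 38.9, 39.5 and 38.6 FPKM in KD1, KD2 and KD3, against 57.0, 56.6 and 56.6 FPKM in NC1, NC2 and NC3. Spread was smaller than 1 FPKM within either group, KD1 lay with the other KD libraries, and KD cells kept 68.8% of the NC level (log2 difference -0.53, SE 0.05, adjusted p = 0.000598). Txn1, thioredoxin itself, had 219, 249 and 274 FPKM in KD libraries, against 303, 308 and 308 FPKM in NC libraries, with a wide KD spread below a narrow NC one (log2 difference -0.31, SE 0.09, adjusted p = 0.0399). Srxn1, which revives overoxidised peroxiredoxins, had 40.0, 47.9 and 47.3 FPKM in KD libraries, against 51.6, 50.3 and 50.9 FPKM in NC libraries. The groups were apart, but the log2 difference of -0.18 did not pass (adjusted p = 0.146).

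Peroxiredoxins remove peroxide in separate compartments, and they moved in both directions. Prdx3, the mitochondrial form, had 76.1, 60.6 and 64.4 FPKM in KD libraries, against 89.7, 93.4 and 85.7 FPKM in NC libraries (log2 difference -0.42, SE 0.09, adjusted p = 0.0188). Prdx6, which acts with glutathione and also on phospholipids, had 45.002, 46.8 and 46.9 FPKM in KD libraries, against 53.9, 55.3 and 53.1 FPKM in NC libraries. The log2 difference was -0.22 (SE 0.05, limma adjusted p = 0.0208) and did not pass with chromosome medians removed (adjusted p = 0.37) or with quantile scaling. Prdx1, the abundant cytosolic form, had 197, 147 and 147 FPKM in KD libraries, against 192, 190 and 175 FPKM in NC libraries. KD1 was above every NC value while KD2 and KD3 were below, so with all libraries it did not pass (log2 difference -0.19, adjusted p = 0.294) and without KD1 it did (-0.33, limma adjusted p = 0.00438).

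Prdx5 was the peroxiredoxin that rose. It spans 6906697 to 6910106 of chromosome 19, minus strand (ENSMUSG00000024953), its product reaches mitochondria, peroxisomes and cytosol, and its promoter window is shown above. It had 28.6, 41.9 and 44.5 FPKM in KD1, KD2 and KD3, against 24.6, 24.1 and 26.4 FPKM in NC1, NC2 and NC3. KD1 lay close to the NC libraries, and KD2 and KD3 were far above (ratio 1.53, log2 difference 0.57, SE 0.16, adjusted p = 0.0427). Without KD1 the difference was 0.77 (limma adjusted p = 0.000393), and the call ended when KD2, KD3, NC1, NC2 or NC3 was left out (adjusted p up to 0.136), with no filter, with no intensity trend and with chromosome medians removed (0.0664). Trmt112 overlaps 409 bases of Prdx5 on the opposite strand and had 31.8 ± 2.17 FPKM in KD and 30.9 ± 1.88 FPKM in NC (SD, n = 3 each, log2 difference 0.04, adjusted p = 0.746). Prdx4, the peroxiredoxin of the endoplasmic reticulum, had 42.1, 43.9 and 48.3 FPKM in KD libraries, against 36.3, 40.0 and 39.7 FPKM in NC libraries. It was higher in each KD library but did not pass (log2 difference 0.20, SE 0.07, adjusted p = 0.0829), though it did without KD1 (0.25, adjusted p = 0.0251) and with voom on recovered reads (adjusted p = 0.0441). Prdx2 had 29.4 to 31.6 FPKM in KD and 28.0 to 29.3 FPKM in NC libraries (log2 difference 0.07, adjusted p = 0.372), and its sign turned with chromosome medians removed. The end of its span is shared with Junb and the start with Rnaseh2a, both on the opposite strand.

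As shares of the summed FPKM of Prdx1 to Prdx6, Prdx3 made up 18.2%, 16.4% and 16.8% in KD libraries, against 21.1%, 21.7% and 21.0% in NC libraries. Prdx5 made up 6.83%, 11.3% and 11.7% in KD libraries, against 5.77%, 5.60% and 6.45% in NC libraries. The Prdx4 share was 10.06% to 12.6% in KD and 8.54% to 9.71% in NC libraries, and the Prdx6 share 10.75% to 12.63% in KD and 12.66% to 12.98% in NC libraries, the last pair separated narrowly. These 4 shares were apart between groups (exact permutation p = 0.1 each, the smallest possible) and those of Prdx1 and Prdx2 were not (p = 0.5 and 0.2), all 6 being tied to each other by their sum. Prdx1 remained the highest of the 6 per length in each library, and the family sum was 418, 371 and 382 FPKM in KD libraries, against 426, 431 and 409 FPKM in NC libraries (exact permutation p = 0.2).

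**Figure D2:**
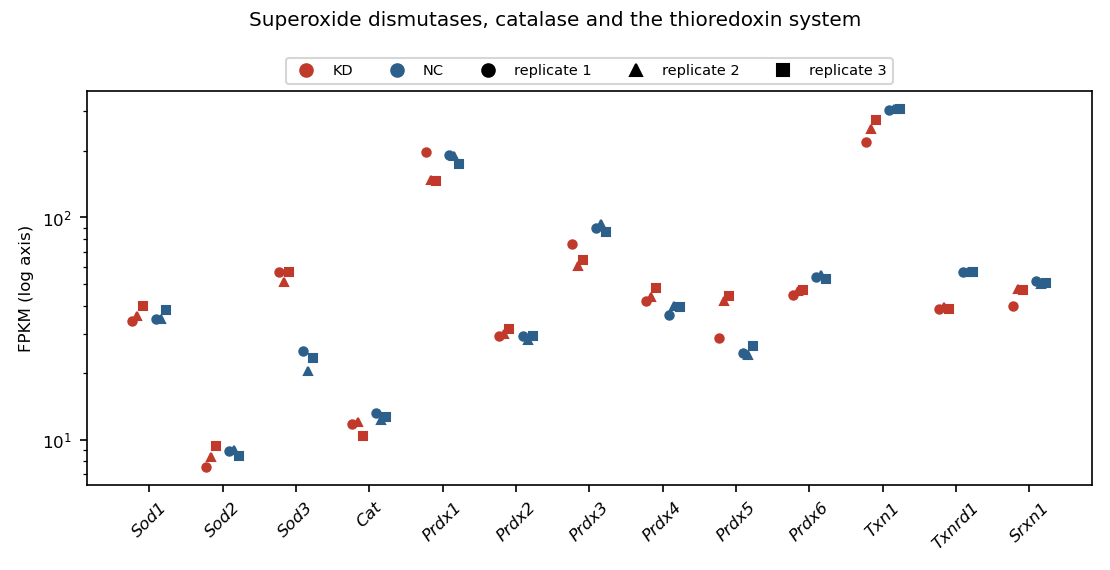
FPKM on a log axis in each library for superoxide dismutases, catalase, peroxiredoxins and the thioredoxin genes; KD points are left of NC points, and marker shapes give the replicate. Sod3 sits at 51.1 to 57.1 FPKM in KD and 20.3 to 25.2 FPKM in NC, and KD1 departs from KD2 and KD3 for Prdx1 and Prdx5.

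NADPH is the reducing agent behind both systems. Of the 4 genes grouped here under its supply only Me1 passed the threshold, a single call where 13.6% of all tested genes were lower. Me1, cytosolic malic enzyme, had 30.0, 26.7 and 24.2 FPKM in KD libraries, against 33.9, 35.1 and 34.4 FPKM in NC libraries. There was no overlap, and KD1 was the KD library closest to NC (log2 difference -0.35, SE 0.08, adjusted p = 0.0246). Pgd, the second NADPH-producing step of the pentose phosphate pathway, had 17.5, 24.0 and 25.8 FPKM in KD libraries, against 27.6, 27.7 and 27.9 FPKM in NC libraries. KD1 was far below the rest, and the log2 difference of -0.31 did not pass (SE 0.14, adjusted p = 0.142); without KD1 it was -0.15 and passed (limma adjusted p = 0.0402). Taldo1, a transaldolase of the same pathway, had 34.2 to 47.0 FPKM in KD and 45.1 to 49.9 FPKM in NC libraries (adjusted p = 0.26). G6pdx, the entry enzyme of the pathway, had 36.9, 40.4 and 40.6 FPKM in KD libraries, against 39.1, 41.3 and 40.6 FPKM in NC libraries (log2 difference -0.04, SE 0.06, adjusted p = 0.699). Its span is shared throughout with Ikbkg on the opposite strand.

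Ferritin did not pass. Fth1, the heavy chain that oxidises iron, was by far the most abundant of the 37 genes, with 3187, 2815 and 2918 FPKM in KD libraries, against 3535, 3436 and 3371 FPKM in NC libraries. It alone held 56.1% to 61.5% of the summed FPKM of the 37 genes in KD and 58.7% to 59.5% in NC libraries. All KD values were below all NC values (log2 difference -0.22, SE 0.07, adjusted p = 0.0628), and the difference passed without KD1 (-0.27, limma adjusted p = 0.0079). Ftl1, the light chain, had 299, 452 and 442 FPKM in KD libraries, against 440, 409 and 420 FPKM in NC libraries. KD1 was far below and KD2 and KD3 above, so the log2 difference was -0.11 with all libraries (adjusted p = 0.637) and 0.08 without KD1 (adjusted p = 0.203). The ratio of Fth1 to Ftl1 was 10.7 in KD1, 6.23 in KD2 and 6.61 in KD3, against 8.03, 8.41 and 8.02 in NC libraries. Ftl1-ps1, a copy of the light chain gene, had 12.7 FPKM in KD and 11.5 FPKM in NC.

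Sod3 showed the largest difference of the 37 genes. It encodes the extracellular superoxide dismutase, which binds matrix and is known as an abundant antioxidant enzyme of lung, and it spans 52363791 to 52371418 of chromosome 5, plus strand (ENSMUSG00000072941). It had 57.1, 51.1 and 56.6 FPKM in KD1, KD2 and KD3, against 25.2, 20.3 and 23.4 FPKM in NC1, NC2 and NC3. Every KD value lay far above the highest NC value, and KD1 lay with KD3. The mean was 54.9 ± 3.36 FPKM in KD and 22.9 ± 2.46 FPKM in NC (SD, n = 3 each), from 10690 reads in KD and 4101 in NC libraries, a log2 difference of 1.23 (SE 0.09, adjusted p = 0.000295).

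Neither intracellular form passed the threshold. Sod1, the cytosolic copper-zinc enzyme, had 34.3, 36.2 and 39.8 FPKM in KD libraries, against 35.1, 34.8 and 38.2 FPKM in NC libraries (log2 difference 0.03, SE 0.07, adjusted p = 0.819). Scaf4 shares 650 bases of the Sod1 span on the opposite strand and had 14.75 FPKM in KD and 14.91 FPKM in NC. Sod2, the mitochondrial manganese enzyme, had 7.51, 8.37 and 9.39 FPKM in KD libraries, against 8.93, 8.997 and 8.43 FPKM in NC libraries (log2 difference -0.06, SE 0.08, adjusted p = 0.648). Both overlapped between groups. Per length, Sod3 was the highest of the 3 in KD libraries, while in NC libraries Sod1 was the highest. Sod3 made up 57.7%, 53.4% and 53.5% of their summed FPKM in KD libraries, against 36.4%, 31.7% and 33.4% in NC libraries, and the sum itself was 98.9, 95.6 and 106 FPKM in KD libraries, against 69.2, 64.1 and 70.0 FPKM in NC libraries (exact permutation p = 0.1 for each). Cat, the peroxisomal catalase, had 11.8, 12.015 and 10.4 FPKM in KD libraries, against 13.2, 12.3 and 12.7 FPKM in NC libraries, apart but not past the threshold (log2 difference -0.15, SE 0.07, adjusted p = 0.18).

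**Figure D3:**
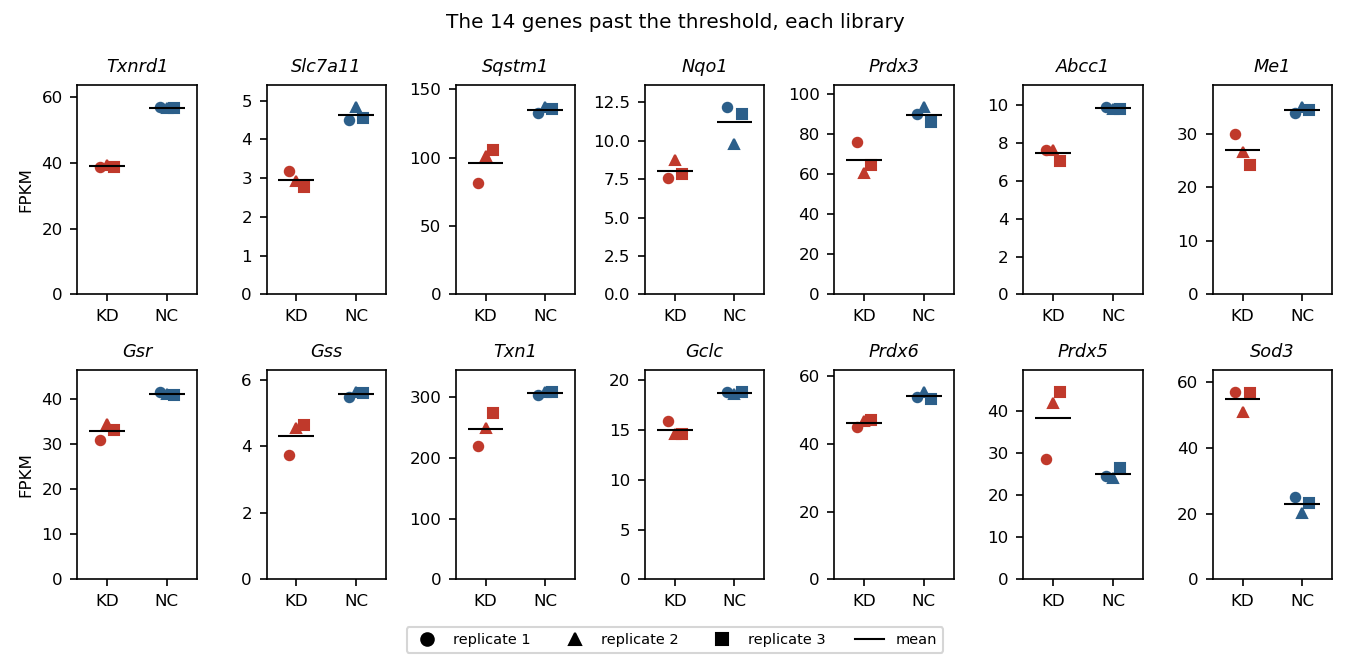
FPKM in each library for the 14 genes past the threshold, KD left of NC in each panel, every axis starting at 0; points are libraries, lines are means of 3. In all 14 panels the groups do not overlap, which is no separate evidence, since the genes were chosen by a test on these same values. Prdx5 in KD1 (28.6 FPKM) is close to the NC values.

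The calls differed in how far they rested on single libraries. Txnrd1, Slc7a11, Abcc1 and Sod3 passed limma in each of the 6 fits that left out 1 library, with adjusted p of at most 0.00855, 0.0281, 0.037 and 0.00297 in that order. For the other 10 genes at least 1 such fit ended the call, with the highest adjusted p between 0.0516 for Gsr and 0.136 for Prdx5. Without NC1 the genes lower in KD were 3, namely Txnrd1, Slc7a11 and Abcc1, where 7.59% of all tested genes were lower and 5.08% higher. Nqo1 joined them without NC2 (7.5% of all lower, 4.8% higher) and Gsr without NC3 (7.98% lower, 5.29% higher). Without KD2 they were 6, with Nqo1, Sqstm1 and Gsr added (7.99% of all lower, 4.82% higher). Leaving out KD3 left 12, with Hmox1 gained and Nqo1 lost (11.8% of all lower, 8.18% higher). In each of these 5 fits Sod3 was the only gene of the 37 that rose. Without KD1 all 14 calls held and 7 were gained, Gclm, Gpx4, Prdx1, Pgd and Fth1 lower and Keap1 and Prdx4 higher. With no filter on low values 8 fell and 1 rose, where 5.37% and 3.51% of 28280 genes did, the calls of Nqo1, Gss, Txn1, Me1 and Prdx5 being lost, and with no intensity trend 11 fell and 1 rose (13.2% and 10.7% of all). Removing chromosome medians gave 13 lower and 1 higher (10.9% and 8.72% of all), and removing the GC and length trend gave 16 lower and 3 higher (18% and 19.4% of all). Removing chromosome medians shifts all genes of a chromosome alike. On chromosome 8 the log2 difference went from -0.432 to -0.605 for Nqo1, -0.316 to -0.489 for Hmox1, -0.243 to -0.416 for Osgin1 and -0.319 to -0.493 for Gsr. For Abcc1 on chromosome 16 it went from -0.359 to -0.307. The cause of such shifts was not tested. By voom on recovered reads 13 fell and 3 rose (13.2% and 14.9% of all).

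**Figure D4:**
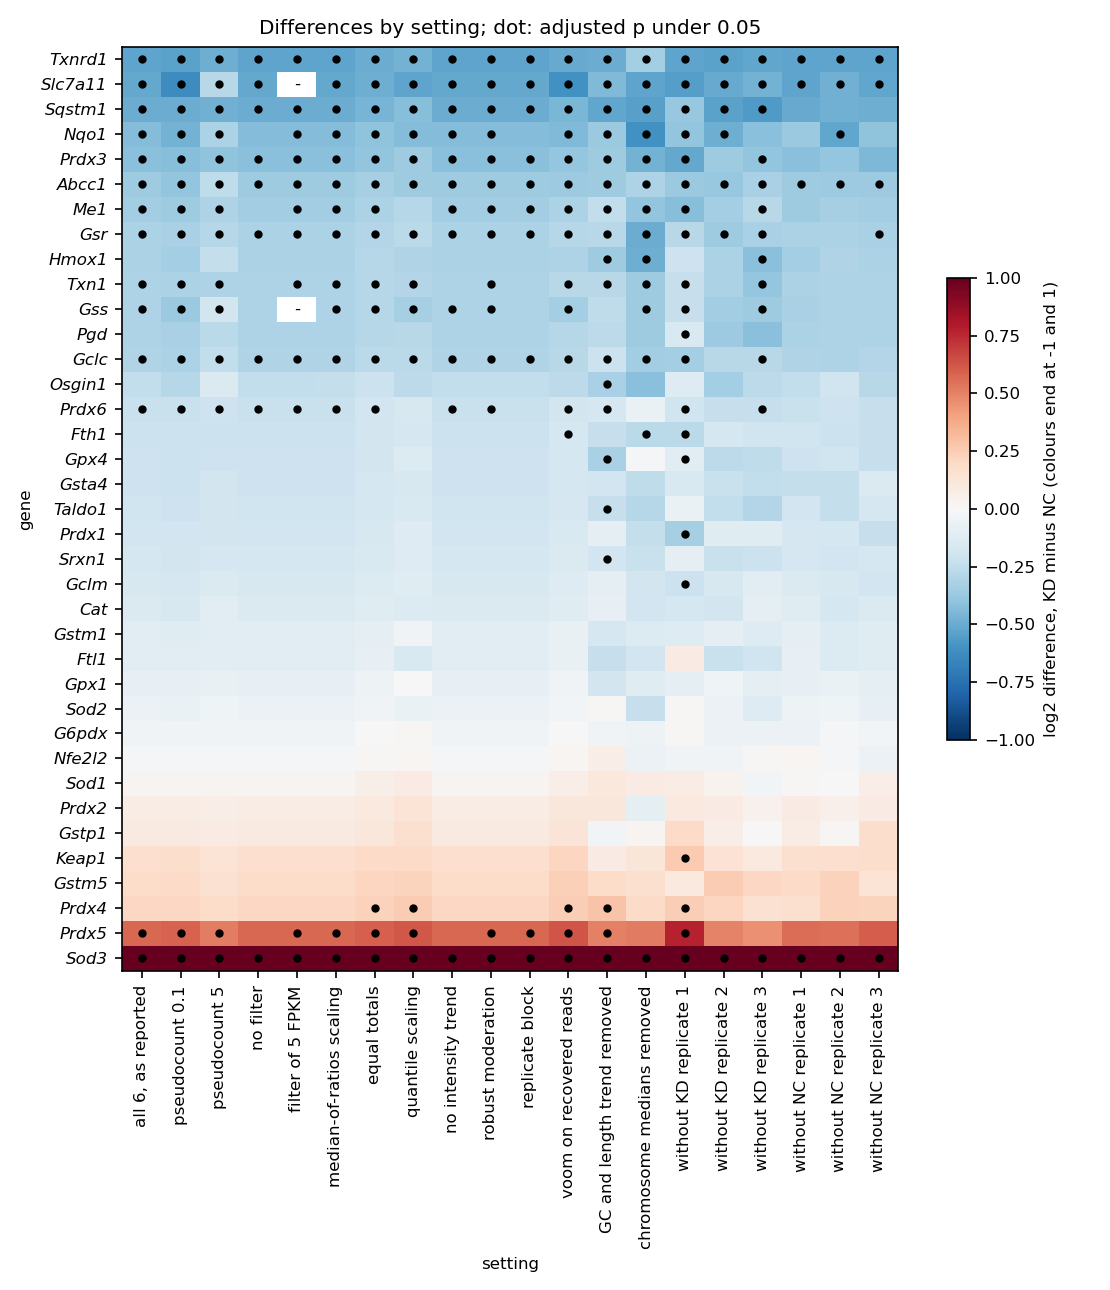
Log2 difference (colour, KD minus NC) of the 37 genes, in rows, under each setting, in columns; a dot marks an adjusted p under 0.05 and a dash a gene not tested. Rows of Txnrd1, Slc7a11, Abcc1 and Sod3 carry a dot in every setting where they were tested, and most other dots are missing in columns that leave out KD replicate 2 or an NC replicate.

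Other genes of the same systems passed the threshold in both directions. Of 114 listed genes 90 were tested, 17 fell (18.9%, against 13.6% of all tested genes) and 8 rose (8.89%, against 10.9%), and the median log2 difference was -0.07, against 0.01 over all. Without KD1 the counts were 26 lower and 21 higher, where 21.5% and 20.9% of all tested genes were called. With chromosome medians removed 10 of the 90 fell and 10 rose, where 10.9% and 8.72% of all tested genes did. Of 26 tested glutathione genes 3 fell and 3 rose, of 11 thioredoxin genes 2 fell and 1 rose, and of 10 NADPH and pentose phosphate genes 3 fell and 1 rose. Among 11 iron and haem genes 2 fell and 1 rose, of 16 detoxification genes 3 fell and 1 rose, of 7 peroxide and superoxide genes 2 fell and 1 rose, and of 9 partners and regulators of NRF2 2 fell and 0 rose. With so few genes a group and 13.6% of all tested genes lower and 10.9% higher, these counts are given as a description only.

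The 10 with the largest differences included 6 that fell. The theta-class transferase Gstt1 averaged 4.61 ± 0.61 FPKM in KD and 7.51 ± 0.35 FPKM in NC (SD, n = 3 each; log2 difference -0.61, adjusted p = 0.00502). Mgst1, a membrane-bound transferase, averaged 22.2 ± 0.77 FPKM in KD and 33.8 ± 2.0 FPKM in NC (SD, n = 3 each; log2 difference -0.58, adjusted p = 0.00157). Abcc4, an organic anion pump, had 3.86 to 4.27 FPKM in KD and 6.28 to 6.89 FPKM in NC libraries (-0.56, adjusted p = 0.0022). Aifm2, an NADPH-dependent reductase that protects membrane lipids, had 2.03 to 2.67 FPKM in KD and 3.60 to 4.14 FPKM in NC libraries (-0.57, adjusted p = 0.00969). Aox1, an aldehyde oxidase, had 1.67 to 1.85 FPKM in KD and 2.64 to 3.17 FPKM in NC libraries (-0.49, adjusted p = 0.00978). These 5 passed with any 1 library left out. Txnrd3, another thioredoxin reductase, had 4.19 to 6.17 FPKM in KD and 7.45 to 8.74 FPKM in NC libraries (-0.57, adjusted p = 0.0196), a call that ended without KD2, NC1 or NC2 (limma adjusted p up to 0.0793).

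The rest of the 10 rose. Aldh1a1, a retinaldehyde dehydrogenase, averaged 2.04 ± 0.07 FPKM in KD and 0.454 ± 0.14 FPKM in NC (SD, n = 3 each; log2 difference 1.07, adjusted p = 0.00157). Txnip, the inhibitor that binds thioredoxin, had 29.6 to 32.5 FPKM in KD and 21.2 to 22.6 FPKM in NC libraries (log2 difference 0.48, adjusted p = 0.00221), and Aldh1a1 and Txnip passed with any 1 library left out. Cyba, a subunit of NADPH oxidases, had 2.27 to 3.76 FPKM in KD and 0.545 to 1.44 FPKM in NC libraries (0.98, adjusted p = 0.018), and its call ended without NC3 (adjusted p = 0.0507). Gstm6 had 4.58 to 5.86 FPKM in KD and 2.82 to 3.49 FPKM in NC libraries (0.57, adjusted p = 0.0117); its call ended without NC1 or NC2 (adjusted p up to 0.0518), and as a relative of Gstm1 its reads may be split.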

How the data were processed

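Total RNA was sequenced as paired-end reads on an Illumina NovaSeq instrument and aligned with HISAT2 2.0.5, per the labels' protocols, with mm10 named in the submitters' processing notes. How reads were counted, whether by strand, and on which annotation is not given in the sources used here. For 54532 genes the authors deposited FPKM, with gene length beside it. The product of FPKM and length was a multiple of 1 step per library for 100.0% of values above 0 (tolerance 0.01), so reads were recovered; whether reads or fragments were counted is not stated. Of 54409 gene identifiers shared with GENCODE M21, 98.33% had the same coordinates.

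Groups were taken from the titles. The test was limma 3.58.1 (R 4.3.3) on log2(FPKM + 1), a linear model of group with an intensity trend, Benjamini-Hochberg adjusted over the 12299 genes whose mean reached 1 FPKM. A difference on this scale understates the change of low genes. All 37 genes are named, as are the targeted gene and the 10 largest called differences of a list of other genes from the same systems. Members and lists were chosen with earlier results of these data known. Alternatives were pseudocounts of 0.1 and 5, no filter or 5 FPKM, scaling by median of ratios, by totals or by quantiles, a prior without trend or with robust moderation, a replicate block, voom on recovered reads, GC content and length fitted with splines of 5 degrees of freedom and subtracted, chromosome medians subtracted, and each library left out. The code was tested on simulated data. Replicate numbers were not taken as pairs. Python 3.11.15, pandas 2.3.3 and matplotlib 3.10.9 were used for tables and plots. The number of libraries, 3 a group, and for low genes the number of reads limit the precision.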

Additional observations from a re-analysis of the deposited data

How the results depend on the processing

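Of 701 differences of single genes under an alternative, 611 kept direction and side of the threshold, 53 lost a call, 20 gained one and 17 turned sign; all that turned sign were of genes that had not passed. Nfe2l2 became 0.008 with equal totals, 0.02 with quantile scaling, 0.018 with voom and 0.07 with the GC and length trend removed. G6pdx became 0.009 with quantile scaling and 0.003 with voom, Gpx1 0.006 with quantile scaling, Gstp1 -0.031 and Sod2 0.012 with the GC and length trend removed, and Prdx2 -0.10 with chromosome medians removed. With 1 library left out, Nfe2l2 ranged from -0.061 to 0.018, Gstp1 from -0.003 to 0.195, G6pdx from -0.059 to 0.008, Ftl1 from -0.219 to 0.079, Sod1 from -0.03 to 0.074 and Sod2 from -0.131 to 0.013. Higher genes among the 37 numbered 1 with no filter, no intensity trend or chromosome medians removed, against 2 as reported. Over all tested genes 2386 were higher with the GC and length trend removed (19.4%), against 1344 as reported (10.9%). Of the other listed genes 15 of 90 were higher in that setting, against 8 of 90 as reported. With no filter 5 of 110 were higher and with a filter of 5 FPKM 5 of 70, where 3.51% and 12.6% of all genes were. With chromosome medians removed 10 of 90 were lower, near the 10.9% of all genes, against 17 of 90 and 13.6% as reported. Leaving out 1 library gave 1 to 4 higher and 3 to 17 lower of the 37, 590 to 2572 higher and 923 to 2648 lower over all genes, and 4 to 21 higher and 6 to 26 lower of the other listed genes, the highest counts in each case without KD1. With the replicate block 8 of the 37 were lower and 2 higher, the calls of Nqo1 (limma adjusted p = 0.0546), Gss (0.0566), Txn1 (0.0513) and Prdx6 (0.0577) being lost, and 1050 genes were higher (8.54%) and 1383 lower (11.2%) over all; same-numbered KD and NC libraries deviated from their group means with correlations of 0.079, -0.043 and 0.154, which does not show pairs. The cause of these changes was not tested. At 3 libraries a group an exact permutation test cannot go below 0.1.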

Other observations

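Further genes of the same systems passed the threshold, chosen for mention here after their values were seen. In the pentose phosphate pathway the epimerase Rpe averaged 14.7 ± 1.40 FPKM in KD and 19.2 ± 0.84 FPKM in NC, and the isomerase Rpia 8.97 ± 0.80 FPKM in KD and 11.8 ± 0.69 FPKM in NC (SD, n = 3 each). Nadk, the kinase that makes NADP, averaged 80.4 ± 2.38 FPKM in KD and 96.4 ± 1.52 FPKM in NC. Idh2, the mitochondrial NADP-dependent isocitrate dehydrogenase, went the other way, with 79.8 ± 7.75 FPKM in KD and 59.5 ± 2.70 FPKM in NC. Limma adjusted p was 0.018, 0.0194, 0.0127 and 0.0139 in that order. Among iron genes, Ncoa4, the receptor that delivers ferritin to lysosomes, averaged 9.08 FPKM in KD and 11.9 FPKM in NC (adjusted p = 0.0207). Each of these 5 calls ended when some single libraries were left out, with limma adjusted p up to 0.0797, 0.0813, 0.073, 0.0636 and 0.0884 in that order.

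Some genes of these systems had no reads in any of the 6 libraries: Gpx2, Gstm3, Gstk1 and Msrb2. At these depths 3 reads, the limit that a count of 0 allows, correspond to 0.164 to 0.189 CPM per library, counting error only. Nnt, the mitochondrial transhydrogenase that makes NADPH, had 22 reads over the KD and 38 over the NC libraries under its main identifier and 0 under a second identifier of the same symbol. Both identifiers cover nearly the same span on the same strand. How reads that fit both were counted is not given, so the level of Nnt is uncertain. Slc40a1, the iron exporter ferroportin, had 4 and 3 reads over the KD and NC libraries, and the catalytic NADPH oxidase subunit gene Cybb had 1 in each group, although Cyba, which encodes its partner subunit, had 0.545 to 3.76 FPKM over all libraries.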
